A study of Mus musculus with 8 samples.

Results

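Transforming growth factor beta (TGFb) and activin form 2 branches of the same signalling family, and 10 genes of these branches were followed here through mouse colon fibroblasts with and without Zeb1. The members were taken by symbol. They are 4 ligand genes (Tgfb1, Tgfb2, Tgfb3 and the activin subunit gene Inhba), 3 receptor genes (Tgfbr1, Tgfbr2, Tgfbr3) and 3 genes of feedback and ligand trapping (Smad7, Pmepa1, Fstl3). All 10 were found among the 45321 annotated genes, and all 10 were among the 12963 genes abundant enough to be tested. Bulk RNA sequencing had been run on 8 libraries of polyadenylated RNA. Untreated adherent cultures with the genotype Zeb1 flox/flox (Fib-Ctrl) gave 4 libraries, and untreated cultures with the genotype Zeb1 del/del (Fib-dZeb1) gave the other 4. Each genotype had 2 lines, numbered 1 and 2 in the labels, with 2 replicate libraries per line, so a group of 4 libraries stood for only 2 lines. In the study's methods such cultures grew out of colon tissue from animals with loxP-flanked Zeb1, and Cre recombinase was then activated in the dish. What the Fib-Ctrl cultures received at that step is not given, so Cre treatment and genotype cannot be told apart. The age of the animals was not used here.

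TGFb ligands are secreted in a latent form and, once released, bind a type II receptor (Tgfbr2 product), which recruits and phosphorylates a type I receptor (Tgfbr1 product). The type I receptor then phosphorylates SMAD2 and SMAD3, which enter the nucleus with SMAD4 and switch on target genes. Activin A, a dimer of the Inhba product, reaches the same SMADs through its own receptors. In fibroblasts this pathway is known for driving the myofibroblast state, with contractile actin and collagen production. The pathway is held back by products of its own target genes, among them the inhibitory SMAD encoded by Smad7, the membrane adaptor encoded by Pmepa1 and the secreted activin trap encoded by Fstl3. Zeb1 encodes a zinc-finger repressor of epithelial genes that is itself induced by TGFb in several cell types.

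Libraries held 18852422 to 25540529 reads, and the members had between 266 (Tgfbr3) and 5264 (Pmepa1) estimated reads each in a library. The targeted gene, Zeb1, averaged 94.7 ± 2.71 CPM in Fib-Ctrl, against 14.3 ± 2.96 CPM across Fib-dZeb1 (SD, n = 4 libraries each), where CPM are TMM-scaled counts relative to library size. The 9 fibroblast markers were all measured, with summed levels of 14859 to 19028 TPM (read density per transcript length, scaled to a fixed total per library) in Fib-Ctrl and 7194 to 11208 TPM in Fib-dZeb1. Collagen genes weigh heavily in this sum, and Col1a1 alone averaged 6375 TPM in Fib-Ctrl and 2302 TPM in Fib-dZeb1. Col1a1, Col1a2 and Pdgfrb were called lower. The other 6 markers were not called, among them Vim with means of 3750 and 3889 TPM. The 11 epithelial markers summed to 2.43 to 6.61 TPM in Fib-Ctrl and 25.8 to 191 TPM in Fib-dZeb1. Of these, Epcam and Krt18 passed the test as higher, while 7 of the 11, Cdh1, Vil1 and Cdx2 among them, stayed below 1 TPM in every library. Immune markers summed to 2.99 to 23.8 TPM in Fib-Ctrl and 3.94 to 5.11 TPM in Fib-dZeb1, with Ptprc below 1 TPM in every library. Of these, Lyz2 measured 1.27 to 21.6 TPM in Fib-Ctrl, highest in line 1, and 0.851 to 2.74 TPM in Fib-dZeb1. Endothelial markers summed to at most 1.34 TPM and glial and neuronal markers to at most 3.63 TPM, with Pecam1 and Sox10 below 1 TPM in every library. The interstitial cell of Cajal markers summed to 2.35 to 11.4 TPM in Fib-Ctrl and 16.1 to 58.8 TPM in Fib-dZeb1, with Ano1 called higher and Kit below 1 TPM in every library. Smooth muscle and pericyte markers summed to 1896 to 3971 TPM in Fib-Ctrl and 408 to 652 TPM in Fib-dZeb1, with Actg2 and Cnn1 called lower. The part of these shifts in the results below was not tested, and in bulk libraries fewer cells of a type and less RNA per cell cannot be told apart. In Fib-dZeb1 line 1 reads of Xist and none of Ddx3y were present, and in the other 3 lines the reverse, so at least this line came from another animal. Contrasts with this line therefore also compare different animals, and the 2 cannot be told apart.

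Fib-dZeb1 libraries had less RNA of an activin subunit (Inhba), of a signalling receptor and a coreceptor (Tgfbr1, Tgfbr3), and of a feedback gene and an activin trap (Pmepa1, Fstl3). These 5 passed the test as lower, and none of the 10 members passed it as higher (edgeR quasi-likelihood test over all 12963 genes, Benjamini-Hochberg adjusted p under 0.05). Tgfb1 alone had a higher level with an unadjusted p under 0.05, and DESeq2 called it. Among all genes tested, 8.65% were called lower and 7.54% higher. The median log2 fold change of the 10 members was -0.53, against -0.005 over all genes. The same 5 members had all Fib-dZeb1 libraries below all Fib-Ctrl libraries, which held for 12.3% of all genes. Tgfb1 alone was higher in every Fib-dZeb1 library, which held for 12.0% of all genes, but its adjusted p was 0.0621. The count of 5 fell to 3 without replicate 1 of Fib-Ctrl line 2, and to 2 without replicate 1 or without replicate 2 of Fib-dZeb1 line 2.

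**Figure D1:**
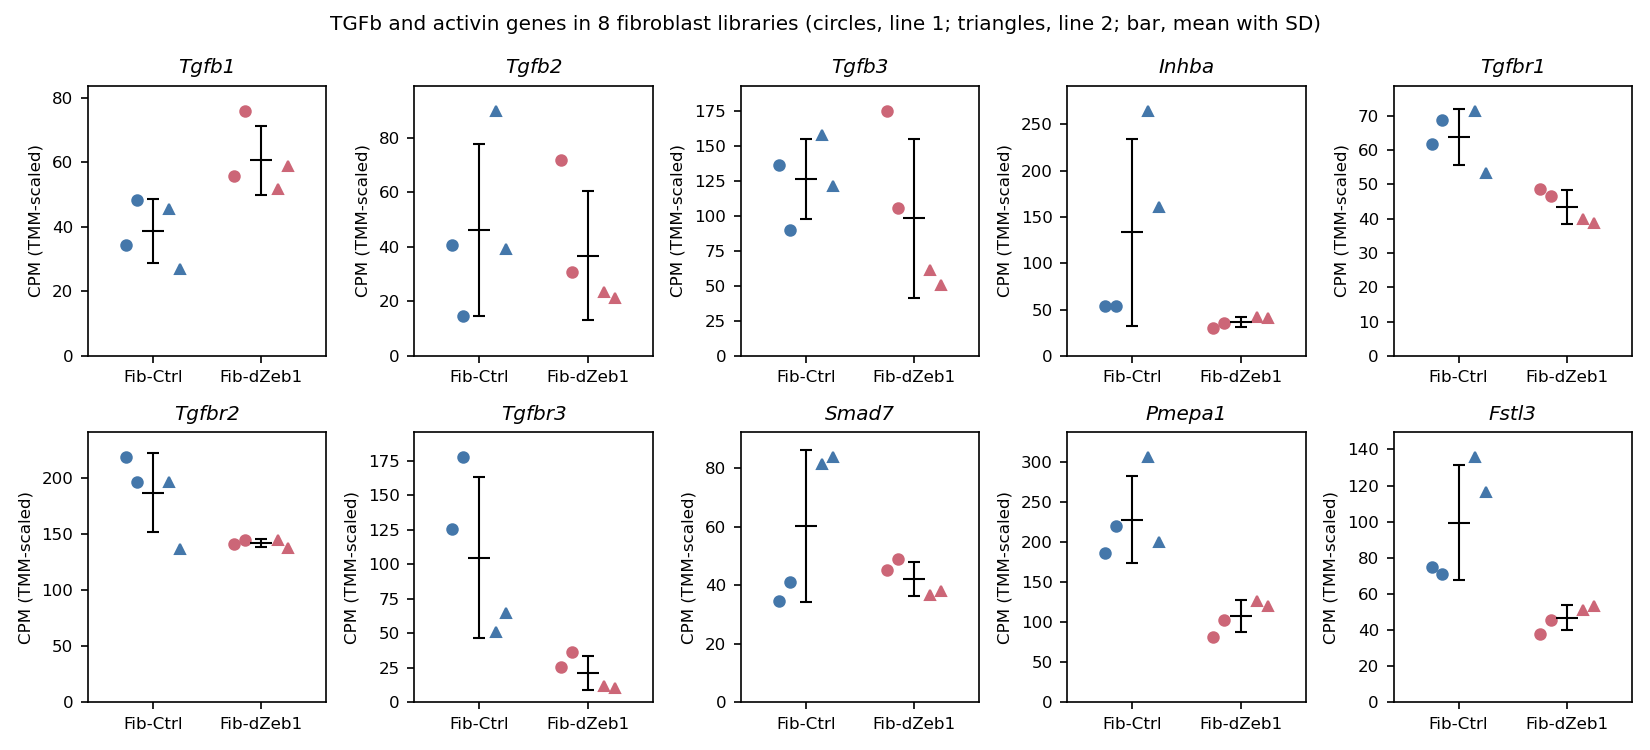
CPM of the 10 genes in each library, with Fib-Ctrl in blue, Fib-dZeb1 in red, circles for line 1, triangles for line 2, and bars for the mean with SD over 4 libraries. Tgfbr3, Pmepa1, Fstl3, Tgfbr1 and Inhba show no overlap between genotypes, Inhba being spread from 53.5 to 265 CPM among the Fib-Ctrl libraries.

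Of the ligand genes, Inhba differed most between genotypes. It encodes the beta A subunit of activin A and of inhibin A (inhibin being the activin antagonist that pairs this subunit with the Inha product), and lies on the plus strand of chromosome 13 (chr13:16011851-16031621, GRCm38). Inhba measured 53.5 and 53.7 CPM in Fib-Ctrl line 1 and 265 and 161 CPM in Fib-Ctrl line 2. It measured 30.2 and 35.2 CPM in Fib-dZeb1 line 1 and 42.2 and 40.6 CPM in Fib-dZeb1 line 2. Both Fib-Ctrl line 2 libraries stood far above the other 6, and the genotypes did not overlap. The difference was 3.59-fold (log2 fold change -1.84, SE 0.51, adjusted p = 0.0408). The adjusted p rose to between 0.0769 and 0.0955 when either Fib-Ctrl line 2 library or any of the 4 Fib-dZeb1 libraries was left out. Without Fib-Ctrl line 2 altogether, the log2 fold change was -0.54 (adjusted p = 0.0629).

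Tgfb1, the isoform most widely produced by immune and stromal cells, had the only positive fold change of the 10 genes, and it did not pass the test. It lies on chromosome 7 (chr7:25687002-25705077, plus strand). Tgfb1 measured 34.3, 48.4, 45.5 and 27.1 CPM in Fib-Ctrl (line 1 replicates 1 and 2, then line 2 replicates 1 and 2, the order used throughout), against 55.7, 76.1, 51.8 and 59.0 CPM in Fib-dZeb1. The lowest Fib-dZeb1 library, 51.8 CPM, lay just above the highest Fib-Ctrl library, 48.4 CPM. The log2 fold change of 0.64 (SE 0.20) missed the threshold in the edgeR fit (adjusted p = 0.0621) and passed it in DESeq2 (adjusted p = 0.0249). It also passed on library size without TMM scaling (0.82, adjusted p = 0.0215) and on log2 TPM with limma (0.81, adjusted p = 0.0212), scales that moved the median of all genes up by 0.178 and 0.160.

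The other TGFb isoforms showed no difference that passed the test. Tgfb2, best known from development of the heart and eye, measured 40.6, 14.8, 90.1 and 39.1 CPM in Fib-Ctrl, against 71.8, 30.9, 23.6 and 21.1 CPM in Fib-dZeb1, with a log2 fold change of -0.32 (SE 0.56, adjusted p = 0.725). Replicates of a single line differed widely, and the genotypes overlapped widely. Tgfb3, an isoform known for palate fusion and wound repair, measured 136, 90.1, 158 and 121 CPM in Fib-Ctrl, against 175, 105, 61.2 and 50.8 CPM in Fib-dZeb1, with a log2 fold change of -0.37 (SE 0.37, adjusted p = 0.538). Only the pair of Fib-dZeb1 line 2 libraries lay below the Fib-Ctrl range.

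Taken per transcript length, the balance of the TGFb isoforms overlapped between genotypes. Tgfb3 made up 50.2% to 62.0% of the summed TPM of the 3 TGFb genes in Fib-Ctrl, against 31.2% to 55.3% in Fib-dZeb1. Tgfb1 made up 22.6% to 44.0% in Fib-Ctrl, against 28.8% to 59.2% in Fib-dZeb1. Tgfb2 was the smallest share in every library, from 5.8% to 21.4%. The summed TPM of the 3 genes ranged from 89.5 to 149 in Fib-Ctrl and from 91.9 to 183 in Fib-dZeb1. In Fib-dZeb1 line 2 and in replicate 2 of Fib-dZeb1 line 1, Tgfb1 exceeded Tgfb3, while every Fib-Ctrl library had more Tgfb3 than Tgfb1.

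Tgfbr3 had the largest fold difference of the 10 genes. It encodes betaglycan, a coreceptor that presents TGFb ligands, TGFb2 above all, to the type II receptor and also binds inhibin; the gene lies on chromosome 5 (chr5:107106570-107289629, minus strand). Tgfbr3 measured 126, 178, 50.9 and 64.8 CPM in Fib-Ctrl, against 25.7, 36.6, 12.1 and 10.8 CPM in Fib-dZeb1. All Fib-dZeb1 libraries lay below all Fib-Ctrl libraries, and line 1 was above line 2 in both genotypes. The level in Fib-dZeb1 was 20.3% of that in Fib-Ctrl (log2 fold change -2.30, SE 0.52, adjusted p = 0.0213). The adjusted p was 0.0542 without replicate 1 and 0.0584 without replicate 2 of Fib-dZeb1 line 2, and the log2 fold change then was -2.10 and -2.07.

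The signalling receptors differed less. Tgfbr1, the type I receptor gene (chr4:47353222-47414931, plus strand), measured 61.8, 68.7, 71.5 and 53.4 CPM in Fib-Ctrl, against 48.7, 46.6, 39.8 and 38.9 CPM in Fib-dZeb1. The ranges did not overlap, though the highest Fib-dZeb1 library came close to the lowest Fib-Ctrl library. The difference was 1.47-fold (log2 fold change -0.55, SE 0.13, adjusted p = 0.0223). Its adjusted p lay between 0.0552 and 0.0692 without replicate 2 of Fib-Ctrl line 1, replicate 1 of Fib-Ctrl line 2 or either library of Fib-dZeb1 line 2. It was 0.0548 on library size only and 0.132 on log2 TPM with limma.

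Tgfbr2, the type II receptor gene (chr9:116084293-116175360, minus strand), measured 218, 196, 196 and 136 CPM in Fib-Ctrl, against 141, 144, 145 and 137 CPM in Fib-dZeb1. Its 4 Fib-dZeb1 values were nearly equal, and 1 Fib-Ctrl library, line 2 replicate 2, lay just below them. The log2 fold change was -0.40 (SE 0.14, adjusted p = 0.0875), and without that library it was -0.53 (adjusted p = 0.0161). This was the only 1 of the 8 fits without 1 library in which Tgfbr2 was called. The adjusted p reached 0.191 in the others, and the library was singled out after its value was seen.

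Both called feedback and trap genes differed by a similar factor. Pmepa1 encodes a membrane adaptor that binds receptor SMADs and lowers their phosphorylation, and lies on chromosome 2 (chr2:173224458-173276533, minus strand). Pmepa1 measured 186, 220, 307 and 201 CPM in Fib-Ctrl, against 82.0, 103, 127 and 120 CPM in Fib-dZeb1. The lowest Fib-Ctrl library was well above the highest Fib-dZeb1 library. The difference was 2.11-fold (log2 fold change -1.08, SE 0.19, adjusted p = 0.00934), and the adjusted p stayed between 0.0157 and 0.0307 when any 1 library was left out.

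Fstl3, which encodes a follistatin-like protein that binds activin and keeps it from its receptors, lies on chromosome 10 (chr10:79777272-79782630, plus strand). Fstl3 measured 74.9, 71.3, 136 and 116 CPM in Fib-Ctrl, against 37.7, 45.8, 51.3 and 53.1 CPM in Fib-dZeb1. The ranges did not overlap, and Fib-Ctrl line 2 held the 2 highest values. The difference was 2.12-fold (log2 fold change -1.08, SE 0.23, adjusted p = 0.0161), with adjusted p values between 0.0156 and 0.0459 when any 1 library was left out. Per transcript length, the ratio of Inhba to its trap Fstl3 was 0.93, 0.98, 2.56 and 1.83 in Fib-Ctrl and 1.02, 1.02, 1.08 and 0.97 in Fib-dZeb1. Only Fib-Ctrl line 2 departed from a ratio near 1.

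Smad7, the inhibitory SMAD that blocks the type I receptor and recruits ubiquitin ligases to it, lies on chromosome 18. Smad7 measured 34.8, 41.0, 81.4 and 83.8 CPM in Fib-Ctrl, against 45.4, 48.9, 36.8 and 38.0 CPM in Fib-dZeb1. Fib-Ctrl line 1 lay within or near the Fib-dZeb1 range and Fib-Ctrl line 2 far above it. The pooled log2 fold change was -0.51 (SE 0.29, adjusted p = 0.260).

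P-values over the 8 libraries treat the replicates of a line as independent. With the replicates of each line summed (2 against 2 lines), none of the 5 called genes passed the test, with adjusted p values of 0.206 (Pmepa1) to 0.338 (Inhba). With limma-voom and a correlation of 0.543 estimated within lines, they were 0.0641 (Tgfbr3) to 0.169 (Inhba). In each of these fits 5 members were lower at an unadjusted p under 0.05. Without Fib-dZeb1 line 2 Pmepa1 was the 1 member still called lower.

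The lines within each genotype differed in several of these genes. Between the Fib-Ctrl lines 4 members passed the test, against 17.0% of all genes. Inhba was 3.97-fold higher in line 2 (adjusted p = 0.00236), Smad7 2.18-fold higher (adjusted p = 0.00188) and Fstl3 1.72-fold higher (adjusted p = 0.00842), while Tgfbr3 was 2.62-fold lower (adjusted p = 0.00851). Between the Fib-dZeb1 lines 2 members passed the test, against 6.87% of all genes. Tgfbr3 was 2.73-fold lower in line 2 (adjusted p = 0.0178) and Tgfb3 2.50-fold lower (adjusted p = 0.0387). The Fib-dZeb1 lines also differed in Xist and Ddx3y, so line and animal cannot be told apart here. The 3 feedback and activin genes that were high in Fib-Ctrl line 2, Inhba, Smad7 and Fstl3, showed no called difference between the Fib-dZeb1 lines. Their log2 fold changes there were 0.34, -0.33 and 0.32 for line 2 over line 1 (adjusted p = 0.373, 0.124 and 0.169). When the line differences of both genotypes were compared directly, Inhba and Smad7 were called and Fstl3 was not (-0.46, adjusted p = 0.126).

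Comparing genotypes separately for each line number gave 5 members called in line 1 and 7 in line 2, where 27.4% and 28.8% of all genes were called. Line numbers do not pair lines of different genotype in the labels, so these contrasts, and their difference, set single lines against each other by an arbitrary numbering. Pmepa1 was lower by nearly the same amount in both (log2 fold changes -1.13 and -1.04, adjusted p = 0.00899 and 0.0112). Tgfbr3 was likewise (-2.28 and -2.34, adjusted p = 0.00128 and 0.000964), and Fstl3 passed in both (-0.81 and -1.27, adjusted p = 0.00555 and 0.000941). Inhba passed in both at unequal size (-0.71 and -2.36, adjusted p = 0.0464 and 0.000693). The difference of the 2 contrasts was called for 15.3% of all genes and for 3 members. These were Inhba (-1.65, adjusted p = 0.0137), Smad7 (-1.46, adjusted p = 0.00254) and Tgfb3 (-1.63, adjusted p = 0.0354). Smad7 and Tgfb3 were each 0.31 higher in line 1 without passing the test, and lower by 1.14 and 1.32 on the log2 scale in line 2.

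**Figure D2:**
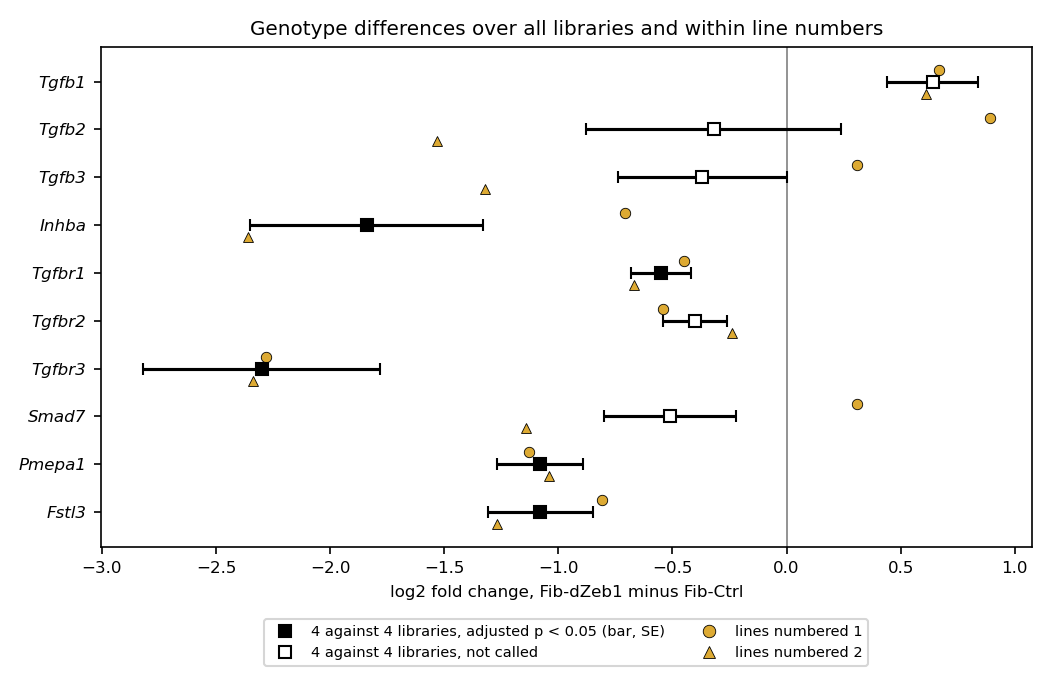
Log2 fold changes of Fib-dZeb1 over Fib-Ctrl for the 10 genes, as squares with SE bars for all 8 libraries (filled where called) and as yellow circles and triangles for lines numbered 1 and 2. Pmepa1 (-1.13 and -1.04) and Tgfbr3 (-2.28 and -2.34) coincide between line numbers, while Tgfb2, Tgfb3 and Smad7 lie on both sides of 0. The numbering is arbitrary across genotypes. For Tgfbr3 the closeness depends on it, since line 2 was 2.62-fold below line 1 in Fib-Ctrl and 2.73-fold in Fib-dZeb1.

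Levels of different genes can be set side by side only per transcript length. In Fib-Ctrl the mean TPM ran from Inhba (163 ± 123) over Pmepa1 (118 ± 16.5), Fstl3 (92.9 ± 28.2), Tgfbr2 (66.1 ± 13.9), Tgfb3 (64.0 ± 15.0), Tgfb1 (32.2 ± 8.13), Tgfbr3 (28.6 ± 16.1), Smad7 (25.9 ± 11.8) and Tgfbr1 (19.8 ± 2.92) to Tgfb2 (16.8 ± 11.1). Neighbours in this order overlapped in their libraries at every step but that from Tgfb3 to Tgfb1. In Fib-dZeb1 the first 6 lay close together, between Pmepa1 at 61.9 ± 11.1 TPM and Fstl3 at 50.0 ± 7.25 TPM. A gap followed, with Fstl3 above Smad7 in all 4 libraries. Smad7 at 20.0 ± 2.17 TPM, Tgfb2 at 15.5 ± 9.22 TPM and Tgfbr1 at 15.5 ± 1.72 TPM overlapped each other. Tgfbr3 came last at 6.43 ± 3.55 TPM, below Tgfbr1 in all 4 libraries (SD, n = 4 throughout). The TPM ratio of Tgfbr2 to Tgfbr3 was 1.41 to 5.02 in Fib-Ctrl, against 5.13 to 16.6 in Fib-dZeb1. The ratio of Tgfbr2 to Tgfbr1, the 2 signalling receptors, overlapped between genotypes (2.96 to 4.0 and 3.19 to 4.05).

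**Figure D3:**
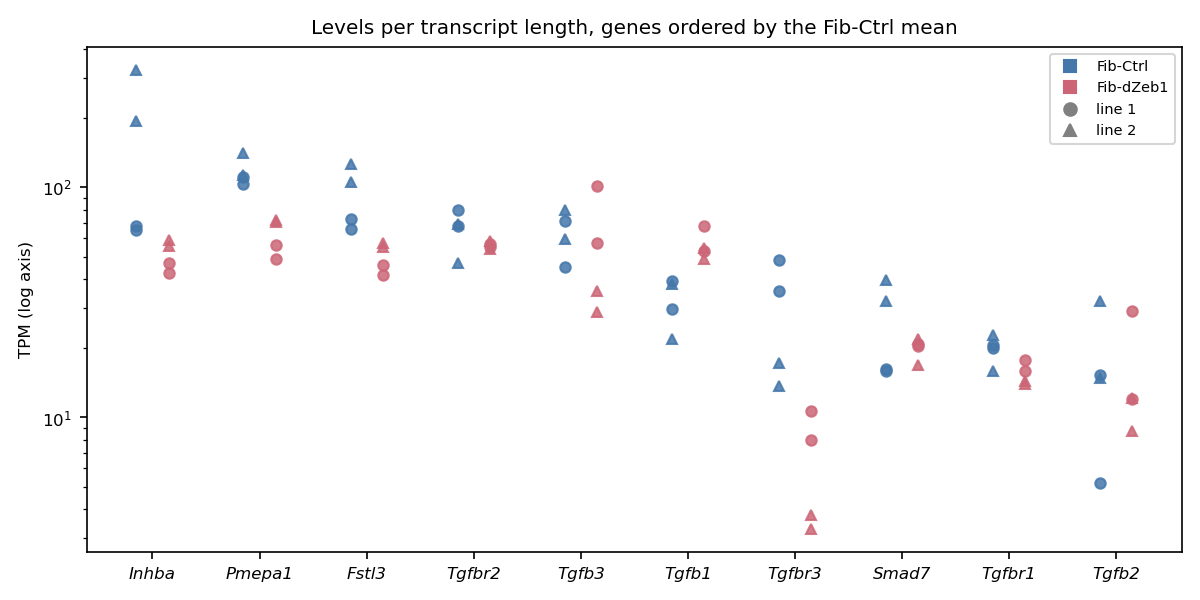
TPM of the 10 genes in each library on a log axis, ordered by the Fib-Ctrl mean, with Fib-Ctrl in blue, Fib-dZeb1 in red, circles for line 1 and triangles for line 2. Inhba has the highest mean in Fib-Ctrl (163 TPM), through line 2 (324 and 194 TPM). In line 1 Inhba (67.9 and 65.0 TPM) lies below Pmepa1 (104 and 111 TPM). Tgfbr3 is last in Fib-dZeb1 (6.43 TPM).

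Several members are transcribed as more than 1 coding transcript. The sequences that set the main ones apart are shown because the tables estimate each transcript separately. They were read from GENCODE M21 transcripts, with the bases present in the first-named transcript and absent from the other in capitals and 18 bases of the joined transcript on either side in lower case. Tgfbr1-201 holds 12 bases that Tgfbr1-202 lacks (chr4:47393247-47393258, plus strand), beside a longer 3′ end. Tgfbr2-202 holds a 75-base exon (chr9:116158271-116158345, minus strand) that lengthens the receptor's extracellular part and is absent from Tgfbr2-201. The second transcript of Tgfb2 by abundance holds an 84-base exon (chr1:186690721-186690804, minus strand) that Tgfb2-201 lacks.
Tgfbr1-201 against Tgfbr1-202: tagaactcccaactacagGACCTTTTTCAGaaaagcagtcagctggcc
Tgfbr2-202 against Tgfbr2-201: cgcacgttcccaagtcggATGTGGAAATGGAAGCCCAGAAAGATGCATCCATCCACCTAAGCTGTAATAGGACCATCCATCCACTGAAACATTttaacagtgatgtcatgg
Tgfb2 with the 84-base exon against Tgfb2-201: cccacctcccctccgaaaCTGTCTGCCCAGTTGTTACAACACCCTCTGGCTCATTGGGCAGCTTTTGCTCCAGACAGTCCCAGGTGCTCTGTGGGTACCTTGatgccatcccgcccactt

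Of the Tgfbr1 transcripts, the main one fell. Tgfbr1-201 was called lower (log2 fold change -0.62, SE 0.13, adjusted p = 0.0326), while Tgfbr1-202 was not called (0.26, SE 0.30, adjusted p = 0.693). The share of Tgfbr1-202 in the gene's TPM was 8.6%, 11.3%, 12.6% and 8.9% in Fib-Ctrl and 19.1%, 16.4%, 17.7% and 20.1% in Fib-dZeb1. The ranges did not overlap, though Tgfbr1-202 rested on only 46.2 to 112 estimated reads per library. This share was singled out after its values were seen, and it was not tested.

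Transcript shares of the other genes overlapped between genotypes. Tgfbr2-202, with the extra exon, made up 26.5% to 34.4% in Fib-Ctrl, against 24.4% to 30.0% in Fib-dZeb1. The Tgfb2 transcript with the 84-base exon made up 16.4% to 26.4% in Fib-Ctrl, against 7.3% to 19.7% in Fib-dZeb1. Pmepa1-201 and the shorter Pmepa1-203 were both called lower (log2 fold changes -1.09 and -1.14, adjusted p = 0.0250 and 0.0282), and Pmepa1-203 held 22.6% to 40.3% in Fib-Ctrl, against 26.9% to 34.5% in Fib-dZeb1. Fstl3-201 (-1.15, adjusted p = 0.0355) and Tgfbr3-201 (-2.31, adjusted p = 0.0471) were called lower as well. Of 16 tested transcripts of the members, 5 were called lower and none higher (1 higher at an unadjusted p under 0.05), against 2.86% of all transcripts called lower.

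**Figure D4:**
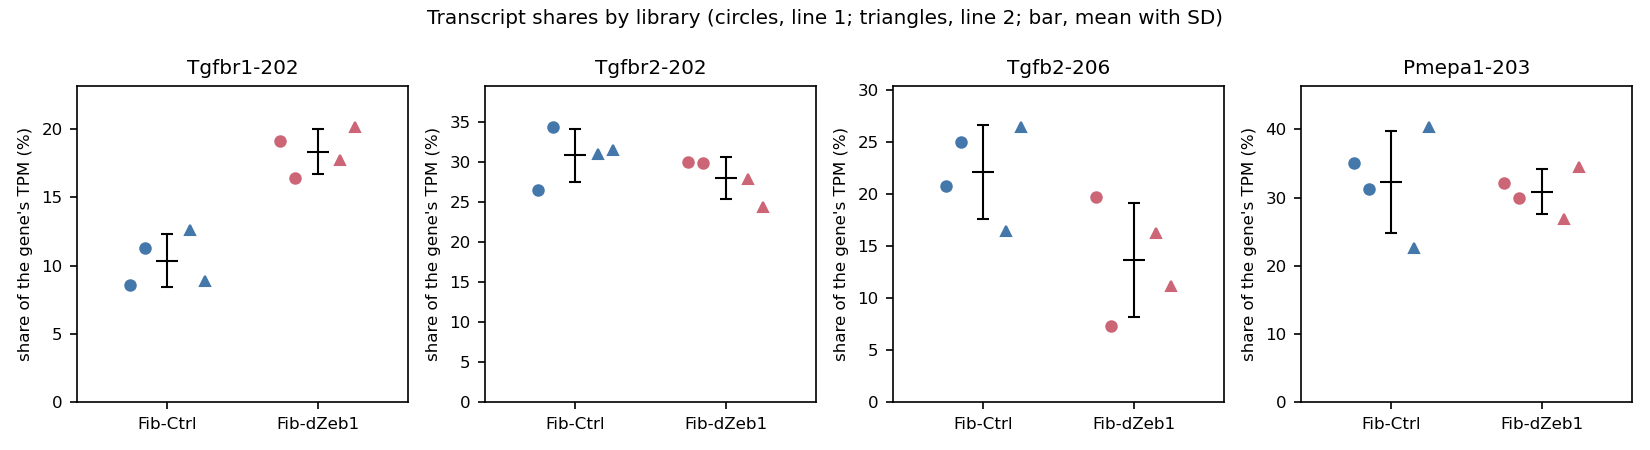
Share of a transcript in its gene's TPM (percent) for Tgfbr1-202, Tgfbr2-202, the Tgfb2 transcript with the 84-base exon and Pmepa1-203 in each library, with circles for line 1, triangles for line 2 and bars for the mean with SD over 4 libraries. Tgfbr1-202 lies at 8.6% to 12.6% in Fib-Ctrl, against 16.4% to 20.1% in Fib-dZeb1, and the others overlap.

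Promoter windows of 300 bases (250 before and 50 after a gene's start, RefSeq, GRCm38.p6) were matched for 6 of the 10 genes, Tgfb1, Tgfb2, Inhba, Tgfbr1 (2 windows), Tgfbr2 and Fstl3. They were searched for the E-box CAGGTG (either strand), a hexamer that ZEB1 is known to bind, and for the short SMAD box CAGAC (either strand). The E-box was present in 20.2% of all 32851 windows and in 1 of the 7 windows of the members, that of Fstl3. The SMAD box was present in 49.6% of all windows and in 4 of 7 of the members' windows, those of Tgfb2, Tgfbr2 and Fstl3 and the second of Tgfbr1. The windows of Fstl3 (chr10:79777024-79777323, plus strand) and Inhba (chr13:16011601-16011900, plus strand) are shown, since both genes were called lower and hold the most and the fewest matches. Capitals mark both motifs on either strand, and the E-box of Fstl3 begins at position -249 from the start.
Fstl3: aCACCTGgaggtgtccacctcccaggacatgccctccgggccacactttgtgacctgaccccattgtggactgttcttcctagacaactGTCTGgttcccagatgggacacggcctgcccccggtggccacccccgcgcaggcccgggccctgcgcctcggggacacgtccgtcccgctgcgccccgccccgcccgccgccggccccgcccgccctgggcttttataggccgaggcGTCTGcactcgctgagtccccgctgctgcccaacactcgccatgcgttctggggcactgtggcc
Inhba: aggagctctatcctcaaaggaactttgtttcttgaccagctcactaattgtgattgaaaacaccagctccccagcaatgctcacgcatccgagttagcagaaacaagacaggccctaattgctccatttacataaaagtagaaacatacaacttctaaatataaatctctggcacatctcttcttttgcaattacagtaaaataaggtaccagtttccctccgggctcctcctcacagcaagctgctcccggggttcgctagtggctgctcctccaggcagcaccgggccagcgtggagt

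Other genes of the pathway were counted from lists of named genes. Of 10 other activin-type ligand genes, 4 were abundant enough to test and 2 were called lower, against 8.65% of all genes. Inhbb, which encodes the beta B subunit of activin B, measured 4.31, 4.42, 24.1 and 7.80 CPM in Fib-Ctrl, against 0.334, 0.712, 0.273 and 0.404 CPM in Fib-dZeb1, with a log2 fold change of -4.53 (SE 0.69, adjusted p = 0.00573). Like Inhba it was highest in Fib-Ctrl line 2 replicate 1. Gdf15, a stress-induced distant member of the family, had a log2 fold change of -1.67 (SE 0.43, adjusted p = 0.0328). None of the 8 other receptor and coreceptor genes tested passed the threshold, and their median log2 fold change was -0.71. Of these, 3 were lower at an unadjusted p under 0.05, Acvr2a, Acvrl1 and Bambi (named after their values were seen), and DESeq2 called these 3 (adjusted p = 0.0117, 0.0172 and 0.0199). The CPM ranges of all 3 overlapped between genotypes, and in each gene the Fib-Ctrl lines differed widely.

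The 2 most abundant of those receptors differed in how they spread. Acvr1, a type I receptor of the family, measured 55.7 to 71.5 CPM in Fib-Ctrl, against 53.6 to 62.6 CPM in Fib-dZeb1, with a log2 fold change of -0.19 (SE 0.11, adjusted p = 0.243). Eng, which encodes endoglin, a coreceptor related to betaglycan, measured 46.0, 49.1, 78.6 and 106 CPM in Fib-Ctrl but 221, 211, 1.09 and 2.09 CPM in Fib-dZeb1. The Fib-dZeb1 lines lay on opposite sides of the Fib-Ctrl range (log2 fold change 0.64, SE 1.30, adjusted p = 0.773). Acvr2a, an activin type II receptor gene, measured 188 and 146 CPM in Fib-Ctrl line 1 and 24.5 to 36.0 CPM in the other 6 libraries. Acvrl1 measured 118 CPM in both Fib-Ctrl line 2 libraries and 7.38 to 16.6 CPM in the other 6 libraries. Bambi was highest in Fib-Ctrl line 2. In Fib-Ctrl line 1 Bambi measured 2.57 and 2.21 CPM, within the Fib-dZeb1 range of 0.477 to 2.67 CPM.

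Of 15 tested genes that store, release and activate latent TGFb, 5 (33.3%) were called lower, against 8.65% of all genes, and none higher (0 higher at an unadjusted p under 0.05 and 0 in DESeq2), and the median log2 fold change was -0.41. Lrrc32, which encodes the cell-surface anchor GARP for latent TGFb, was 31.7-fold lower (log2 fold change -4.99, SE 0.60, adjusted p = 0.00244). Thbs1, which encodes thrombospondin-1, an activator of latent TGFb, was 3.66-fold lower (-1.87, SE 0.29, adjusted p = 0.00625). Ltbp2, Fbn1 and Furin were the other called genes. Of 8 extracellular antagonists tested, 2 (25.0%) were called lower and none higher (again 0 at an unadjusted p under 0.05 and 0 in DESeq2), with a median of -1.01. These were the matrix proteoglycan genes Fmod (19.7-fold lower, log2 fold change -4.30, SE 0.78, adjusted p = 0.00964) and Bgn (2.29-fold lower, -1.20, SE 0.29, adjusted p = 0.0272). Their products bind TGFb and are also structural matrix proteins.

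The intracellular genes of the pathway were called about as often as genes at large. Of 15 SMAD genes and SMAD regulators tested, 1 was called higher and 1 lower (6.67% each, against 7.54% and 8.65% of all genes), with a median log2 fold change of 0.09. Tgif2, a corepressor gene, was 2.27-fold higher (adjusted p = 0.0473), and Ppm1a, which encodes a phosphatase of SMAD2 and SMAD3, was 1.49-fold lower (adjusted p = 0.0310). Of 22 tested genes that TGFb is known to induce, 8 (36.4%) were called lower and 1 (4.55%) higher, against 8.65% and 7.54% of all genes, and the median was -0.73. Col1a2 (3.38-fold lower, adjusted p = 0.00633) and Thbs1 had the smallest adjusted p of those that fell, and Angptl4, a lipoprotein lipase inhibitor, was 5.13-fold higher (adjusted p = 0.0146). Ltbp2 and Thbs1 belong to both this list and that of latency and activation, and the collagens are also fibroblast markers.

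**Figure D5:**
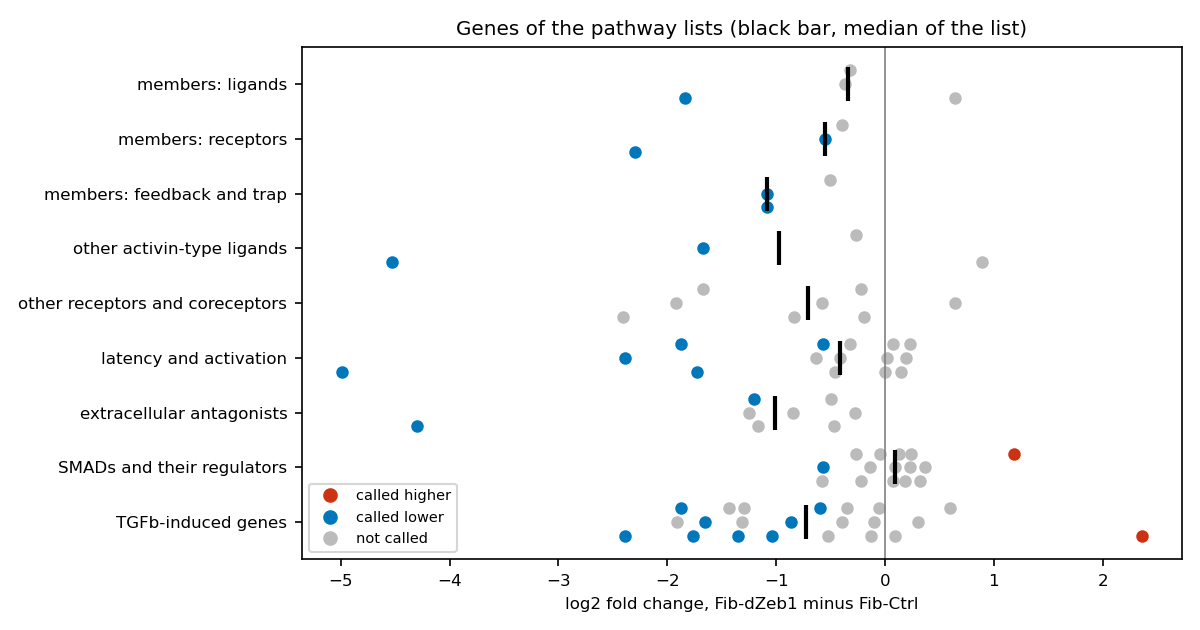
Log2 fold changes (Fib-dZeb1 minus Fib-Ctrl) of each tested gene, 1 row per list, with called genes in blue (lower) or red (higher), genes not called in grey and the median of each list as a black bar. Medians run from -1.08 for the feedback and trap genes to 0.09 for the SMADs and their regulators.

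The genes around the members were also read, since the median difference was not the same on every chromosome. Of 459 genes tested on chromosome 12, which carries Tgfb3, 92 were called lower and 12 higher, with a median log2 fold change of -0.36. That median was -0.07 between lines numbered 1 and -0.62 between lines numbered 2, and it was -0.26 for Fib-dZeb1 line 2 against line 1 and 0.29 for Fib-Ctrl line 2 against line 1. Between the Fib-dZeb1 lines, 36 of these 459 genes were called lower in line 2 and 5 higher, against 6.87% of all genes in either direction. Between the Fib-Ctrl lines, 21 were called lower in line 2 and 85 higher, against 17.0% of all genes. Chromosome 9 had a median of -0.23 between the Fib-dZeb1 lines, close to that of chromosome 12. The part of such shifts in the Tgfb3 difference was not tested. Chromosome 10, with Fstl3, had a median of -0.17, and 111 of its 627 genes were called lower and 14 higher. Chromosome 2, with Pmepa1, had a median of 0.17, and 143 of its 1021 genes were called higher and 52 lower. Chromosome 7, with Tgfb1, had a median of -0.20, opposite to the direction of Tgfb1. The chromosomes of Inhba, Tgfbr1 and Tgfbr3 had medians of 0.07, 0.03 and -0.01.

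The genes most alike to each called member were listed by Pearson's r of log2(CPM + 0.5) over the 8 libraries, which share genotype and line. For Inhba they included Sobp (r = 0.988) and Chsy3 (0.980). For Tgfbr1 they were Alg11 (0.985), Mios (0.974) and Erg28 (0.974), and for Tgfbr3 they were Josd2 (0.990), Gyg (0.983) and Igfbp4 (0.980). For Pmepa1 they were Syn3 (0.992), Sec23ip (0.981) and Gm7809 (0.980), and for Fstl3 they were Map6 (0.990), Myadm (0.986) and Dach2 (0.985). Between 158 and 246 genes exceeded an r of 0.9 with each of these members, so these are the first of many.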

How the data were processed

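RNA of 8 libraries (4 Fib-Ctrl, 4 Fib-dZeb1) from 4 fibroblast lines had been purified by poly-T beads and sequenced. The authors aligned the reads with STAR to GRCm38 and quantified them with Salmon within the nf-core RNA-seq workflow; STAR and Salmon versions, annotation release and strand setting were not given in the sources used here. The authors deposited, per transcript, estimated counts of reads, unnormalised, which need not be whole. The deposited tables also give TPM and an effective length, the other value used here as an offset in an alternative fit. Values were summed to genes with GENCODE M21, which matched 108214 of 109617 transcripts (98.72%), and unmatched ones held 0.262% to 0.303% of a library's reads. Of 34 transcripts of the members, 30 had the same length in both sources; Tgfb3-201 (by 1 base), Inhba-201, Tgfbr2-201 and Tgfbr2-202 did not. The deposited lengths of the Tgfbr2 transcripts differ by 75 bases, whereas in M21 their ends differ too. No 2 libraries had identical values.

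Gene sums were rounded and tested with the quasi-likelihood test of edgeR 4.0.16 (R 4.3.3) on genotype alone, with filterByExpr, TMM scaling and Benjamini-Hochberg adjustment over 12963 genes at 0.05. A second fit gave each line its own mean. Transcripts were tested in the same way. The SE of a log2 fold change in these fits is its absolute value divided by the square root of the test's F statistic. The test was tried on simulated data first. The simulated libraries were independent, without lines, so this cannot show how the test behaves with correlated replicates of a line. Alternatives used DESeq2 1.42.0, limma 3.58.1, other scalings and filters, blocks, and fits without single libraries or lines. The lines left out whole were chosen after seeing the data. All other alternatives were fixed beforehand, but the members and gene lists were chosen with earlier results of these data known. Named genes were all members, up to 2 called higher and 2 called lower per list by smallest adjusted p (or else the 2 most abundant), and the 3 most alike genes of each called member, of which 1 is not reported here. Promoter windows are from RefSeq. Where nothing says that replicates of a line were separate cultures, p-values measure only the spread between these libraries, which may be technical. Reads of overlapping genes cannot be told apart without strand.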

Additional observations from a re-analysis of the deposited data

Results flagged for a closer look

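The genotype difference was not equal between line numbers for 3 members, against 15.3% of all genes. The numbers do not pair cultures, so the sign and size of this difference rest on an arbitrary numbering. The contrast between lines numbered 2 minus that between lines numbered 1 was -1.65 for Inhba (adjusted p = 0.0137), -1.46 for Smad7 (adjusted p = 0.00254) and -1.63 for Tgfb3 (adjusted p = 0.0354), on the log2 scale in edgeR's fit with a mean for each line. For Inhba and Smad7 the Fib-Ctrl lines differed (1.99 and 1.12 higher in line 2), and for Tgfb3 the Fib-dZeb1 lines did (-1.32). No member had a library that stood apart from the other 3 of its genotype by Dixon's test on CPM. That test looks for 1 library apart and cannot flag a line whose replicates both differ, as for Inhba and Smad7 in Fib-Ctrl.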

How the results depend on the processing

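Over 24 alternatives, the log2 fold changes of Tgfb1, Inhba, Tgfbr1, Tgfbr2, Tgfbr3, Pmepa1 and Fstl3 kept their sign. Of 240 member values, 185 kept direction and side of the threshold, 37 lost the call, 10 gained it and 8 reversed. Reversed values were Tgfb2 at 0.22 with replicate 1 of Fib-Ctrl line 2 left out (range without 1 library -0.87 to 0.22), 0.40 without Fib-Ctrl line 2, 0.16 without Fib-dZeb1 line 2 and 0.89 within line number 1; Tgfb3 at 0.15 without Fib-dZeb1 line 2 and 0.31 within line number 1; and Smad7 at 0.15 without Fib-Ctrl line 2 and 0.31 within line number 1.

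Against 978 genes higher and 1121 lower, DESeq2 called 1573 and 1758, library size only 2272 and 719, log2 TPM with limma 1985 and 726, lines summed 9 and 7, and the correlation within lines 114 and 146. Without Fib-dZeb1 line 2 the counts were 384 and 433, within line number 1 1757 and 1794, and within line number 2 1831 and 1898. Leaving out 1 library gave 476 to 1011 higher and 508 to 1141 lower. The share of called genes that were higher was 46.6% after TMM, 76.0% on library size only and 73.2% on log2 TPM.

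Members called lower numbered 5, but 3 on log2 TPM (Inhba, adjusted p = 0.0795, and Tgfbr1, 0.132, lost), 0 with lines summed, 0 with the correlation within lines, 1 without Fib-dZeb1 line 2, and 2 to 5 without 1 library. Members called higher numbered 0, but 1 (Tgfb1) with DESeq2, library size only and log2 TPM, and 0 without any 1 library. Pmepa1 and Fstl3 kept their calls without any 1 library, and without Fib-dZeb1 line 1 or line 2 Fstl3 lost it (adjusted p = 0.0892 and 0.0674). The cause of these changes was not tested. Deviations from the genotype means, compared between equally numbered libraries, correlated at 0.18, -0.03, -0.03 and 0.06, so numbers were not taken as pairs. With the replicate number as a block 920 genes were higher and 1046 lower; among the 5 called members only Inhba lost its call (adjusted p = 0.0602), as it did with the line and replicate block (0.0617). By estimated counts in place of TPM, and CPM in place of TPM, transcript and isoform shares changed, since these units do not correct for length. The E-box count of 1 was the same before the start only.

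Each member had at least 266 reads in every library, and each genotype had only 2 lines.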
